A study of Mus musculus with 15 samples.

Results

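The keratin genes of the mouse, type I and type II, were followed through 15 libraries of basal cell carcinoma. All genes were taken whose symbol is Krt followed by 1 to 3 digits and at most 1 letter, without pseudogenes and without the keratin-associated proteins. This gave 53 genes of the 36528 listed in each library, 28 of type I and 25 of type II. They were grouped by where each is best known in skin: 3 basal, 9 suprabasal, 5 stress, 5 simple, 4 mucosal, 8 root sheath and 15 hair keratins, 1 keratin of the follicle infundibulum and 3 others. The classes were set with earlier results of these data known, and other groupings are possible, as for Krt23, placed here with the suprabasal keratins.

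Keratins are the intermediate filament proteins of epithelia, and a filament forms only from a type I and a type II chain together. Cells exchange one pair for another as they change state: basal keratinocytes make Krt5 with Krt14, cells that leave the basal layer switch to Krt1 with Krt10, and wounded or hyperproliferative epidermis adds Krt6 with Krt16 and Krt17. Basal cell carcinoma resembles the growing hair follicle, and Krt17 is widely used as a marker of it.

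All mice were K14Cre-ER; Ptch1fl/fl; p53fl/fl; Lgr5GFP, so every group carries the same alleles. The recombinase is driven by the promoter of keratin 14, itself a gene described here. Tumour nests were cut by laser capture from fresh frozen skin and their polyadenylated RNA was sequenced, in 5 libraries from mice given vismodegib, a Smoothened inhibitor, for 28 days, 5 from control mice labelled Ki67- and 5 from control mice labelled Ki67+. The labels give no ages and tie no library to an animal, so libraries of a group may share animals, and p-values then measure only the spread between these libraries, which may be partly technical. Libraries are numbered within a group only to name them.

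Depth was 6413055 to 10328822 counts per vismodegib library, 4887381 to 7158143 per Ki67- library and 4929869 to 8359195 per Ki67+ library. Ptch1, the first floxed gene, had 142 to 923 CPM (counts scaled to the size of the library) after vismodegib, against 2053 to 3727 in Ki67- and 2446 to 3758 in Ki67+ nests; Trp53, the second, had 81.0 to 137 CPM after vismodegib, against 116 to 154 CPM in Ki67- and 117 to 175 CPM in Ki67+ libraries. Reads over a whole gene do not separate a deleted from an intact transcript, so neither checks the genotype. Mki67, which encodes the Ki67 antigen, had 489 to 847 CPM after vismodegib, against 234 to 408 CPM in Ki67- and 587 to 1147 CPM in Ki67+ libraries. The Ki67- libraries were accessioned later than the other 10, so a batch of their own, if there was one, cannot be told apart from the group. Xist exceeded Ddx3y in 5 libraries, vismodegib 1, 2 and 3, Ki67+ 5 and Ki67- 5.

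The keratin genes lie in 2 clusters, type I on chromosome 11 and type II on chromosome 15, where Krt18, a type I gene, stands beside Krt8. RefSeq promoters of the build GRCm38.p6 were available for 36 of the 53 genes, and 1 window for each gene was used, the 250 bases before an annotated start. In 30 of the 36 this is the outermost start of the RefSeq gene, to within 1 base; the windows of Krt2, Krt10, Krt12, Krt14, Krt36 and Krt78 lie inside the RefSeq gene, before an inner start. Those of Krt2 and Krt10 end at the start of the principal GENCODE transcript, whereas that of Krt14 lies 1518 bases inside it and is not shown. Windows are shown for 5 genes that the results turn on. All 5 genes lie on the minus strand, and each window is given 5′ to 3′ on that strand. Krt77 (chr15:101869706-101869955) had the largest change, Krt2 (chr15:101818170-101818419) stands near it in the cluster and was hardly detected, Krt10 (chr11:99389365-99389614) is the type I suprabasal keratin, Krt5 (chr15:101712906-101713155) is the type II basal keratin, and Krt32 (chr11:100088270-100088519) was the 1 hair keratin with enough counts to test. Capitals mark matches on either strand to the TATA box TATAAA, the AP-1 core TGANTCA, the Gli core CCACCCA and the Klf core GGGTG; each Gli core holds a Klf core on its other strand.
Krt77: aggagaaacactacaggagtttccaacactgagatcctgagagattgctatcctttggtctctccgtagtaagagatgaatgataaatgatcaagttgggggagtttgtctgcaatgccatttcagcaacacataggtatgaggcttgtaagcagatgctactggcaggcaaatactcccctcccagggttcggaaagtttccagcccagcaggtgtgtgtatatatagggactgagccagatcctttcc
Krt2: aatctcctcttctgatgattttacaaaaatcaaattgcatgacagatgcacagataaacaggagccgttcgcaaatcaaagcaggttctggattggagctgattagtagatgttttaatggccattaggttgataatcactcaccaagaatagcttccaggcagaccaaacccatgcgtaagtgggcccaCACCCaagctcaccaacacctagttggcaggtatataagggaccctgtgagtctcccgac
Krt10: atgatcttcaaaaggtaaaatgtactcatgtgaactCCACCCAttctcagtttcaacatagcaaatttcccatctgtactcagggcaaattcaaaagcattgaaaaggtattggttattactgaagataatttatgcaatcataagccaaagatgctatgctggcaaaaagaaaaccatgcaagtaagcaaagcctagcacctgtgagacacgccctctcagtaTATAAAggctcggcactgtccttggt
Krt5: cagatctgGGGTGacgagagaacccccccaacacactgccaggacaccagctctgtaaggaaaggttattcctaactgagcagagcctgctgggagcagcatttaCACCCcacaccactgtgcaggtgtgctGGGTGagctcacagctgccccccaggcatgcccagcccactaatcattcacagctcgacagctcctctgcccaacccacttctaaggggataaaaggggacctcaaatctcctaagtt
Krt32: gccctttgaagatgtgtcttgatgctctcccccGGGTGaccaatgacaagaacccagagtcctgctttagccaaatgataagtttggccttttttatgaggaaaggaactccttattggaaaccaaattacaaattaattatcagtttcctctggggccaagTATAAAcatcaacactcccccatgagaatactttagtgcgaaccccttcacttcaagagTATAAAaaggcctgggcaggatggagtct

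TATAAA stood in 17 of the 36 keratin windows and in 12.4% of the 32851 windows of all genes. It began 24 to 35 bases before the start in 12 of the 36, against 2.16% of all windows. Over the 30 windows at an outermost start alone, 15 held it, 10 of them at that distance. At any position and on either strand, the root sheath keratins had it in 7 of 8 windows and the hair keratins in 6 of 9. In the suprabasal class 1 of 7 windows, that of Krt10, held it, and the Krt5 window did not. Only the exact letters TATAAA were searched. Near their ends the windows of Krt77, Krt2 and Krt5 hold the similar stretches tatatata, tatataag and gataaaag, which were not counted. The differences between classes therefore hold for these exact letters and do not show that a window lacks a TATA box. At 24 to 35 bases before the start it stood in 4 of 8 root sheath, 4 of 9 hair and 1 of 7 suprabasal windows. The Gli core stood in 4 of 36 keratin windows and in 8.11% of all windows, the AP-1 core in 1 of 36 and in 6.75%, and the Klf core in 28 of 36 and in 52.0%. Krt10 carried the Gli core and the Klf core within it, Krt5 carried 3 Klf cores, and the Krt77 window matched none of the 4 motifs. A match is a description of letters and not of a bound site.

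Taken by their summed counts, keratins held 1.58% ± 0.149 of all counts after vismodegib, against 0.597% ± 0.144 in Ki67- and 0.716% ± 0.109 in Ki67+ nests (SD, n = 5 each). The 5 vismodegib libraries lay between 1.43% and 1.82%, above all 10 untreated libraries, of which the highest reached 0.811%. The suprabasal share was 0.320% ± 0.0110 after vismodegib, against 0.0168% ± 0.00474 in Ki67- and 0.0247% ± 0.0103 in Ki67+ nests. The basal share was 1.0% ± 0.108 after vismodegib, against 0.392% ± 0.0753 in Ki67- and 0.458% ± 0.0693 in Ki67+ nests. The stress share was 0.109% ± 0.0565 after vismodegib, against 0.143% ± 0.0632 in Ki67- and 0.165% ± 0.0148 in Ki67+ nests, and these groups overlapped. In bulk RNA, a change in the number of cells of a type and a change in RNA per cell cannot be told apart.

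To compare genes with each other, the deposited RPKM, which allows for gene length, was summed over all 53 keratins. The sum was 2202 ± 209 after vismodegib, against 872 ± 199 in Ki67- and 1005 ± 123 in Ki67+ nests. Basal keratins made up 66.2% ± 4.96 of this pool after vismodegib, against 63.3% ± 4.17 in Ki67- and 61.0% ± 1.08 in Ki67+ nests. Suprabasal keratins made up 16.9% ± 1.77 after vismodegib, against 2.02% ± 0.473 in Ki67- and 2.5% ± 0.986 in Ki67+ nests. Stress keratins made up 8.44% ± 3.22 after vismodegib, against 27.9% ± 5.0 in Ki67- and 28.1% ± 2.82 in Ki67+ nests. The basal share of the pool was thus close in the 3 groups, while the suprabasal and stress shares each stood apart in all 5 vismodegib libraries, from 14.3% to 19.2% and from 5.37% to 13.7%.

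**Figure D1:**
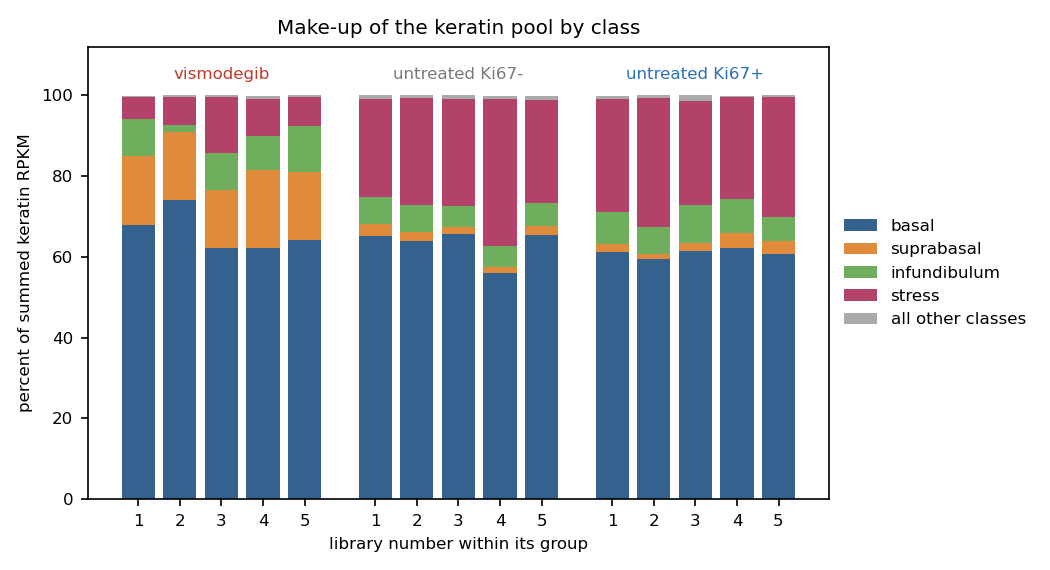
Percent of the summed deposited RPKM of 53 keratins (vertical axis) held by each class in each of 15 libraries (bars, numbered within a group, vismodegib at the left). The suprabasal part reaches 14.3% to 19.2% after vismodegib and at most 3.65% in an untreated library, and the stress part is at most 13.7% after vismodegib and at least 24.2% in an untreated library.

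The RNA of type I and type II keratins, in RPKM, had a ratio near 1 in each group while the pool changed in size. Single libraries ran from 0.834 to 1.05 after vismodegib, 0.791 to 1.06 in Ki67- and 0.869 to 1.06 in Ki67+ nests. The ratio depends on the scaling by length, and protein chains were not measured. The ratio of type II to type I RPKM, over all keratins, was 0.970 ± 0.0844 after vismodegib, against 0.899 ± 0.111 in Ki67- and 0.969 ± 0.0720 in Ki67+ nests. Single pairs moved more. The ratio of Krt5 to Krt14 was 1.59 ± 0.425 after vismodegib, against 2.63 ± 0.490 in Ki67- and 2.49 ± 0.543 in Ki67+ nests, and the groups overlapped. The ratio of Krt17 to Krt14 was 0.274 to 0.578 after vismodegib, against 1.45 to 1.92 in Ki67- and 1.17 to 2.31 in Ki67+ nests, with no overlap. All these ratios are descriptions without a test.

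The order of the levels in RPKM differed between the groups. After vismodegib the mean levels ran Krt5 (628), Krt15 (422), Krt14 (403), Krt79 (178), Krt17 (152), Krt1 (117), Krt10 (114) and Krt77 (96.1). In that order Krt15 stood above Krt14 in 3 of 5 libraries and Krt79 above Krt17, Krt17 above Krt1 and Krt10 above Krt77 in 3 of 5 each, and Krt1 above Krt10 in only 2 of 5, so these neighbours were not apart beyond their spread. In Ki67- nests the order was Krt5 (316), Krt17 (209), Krt14 (123), Krt15 (107), Krt79 (52.5) and Krt6a (24.99), and in Ki67+ nests it was Krt5 (366), Krt17 (242), Krt14 (154), Krt15 (93.3), Krt79 (77.6) and Krt6a (28.3). Krt5 stood above Krt17 and Krt17 above Krt14 in 5 of 5 libraries of each untreated group. Among all genes listed, Krt5 ranked 8th by mean RPKM after vismodegib, against 11th in Ki67- and 9th in Ki67+ nests, while Krt77 ranked 81st, against 17272nd in Ki67- and 14558th in Ki67+ nests.

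**Figure D2:**
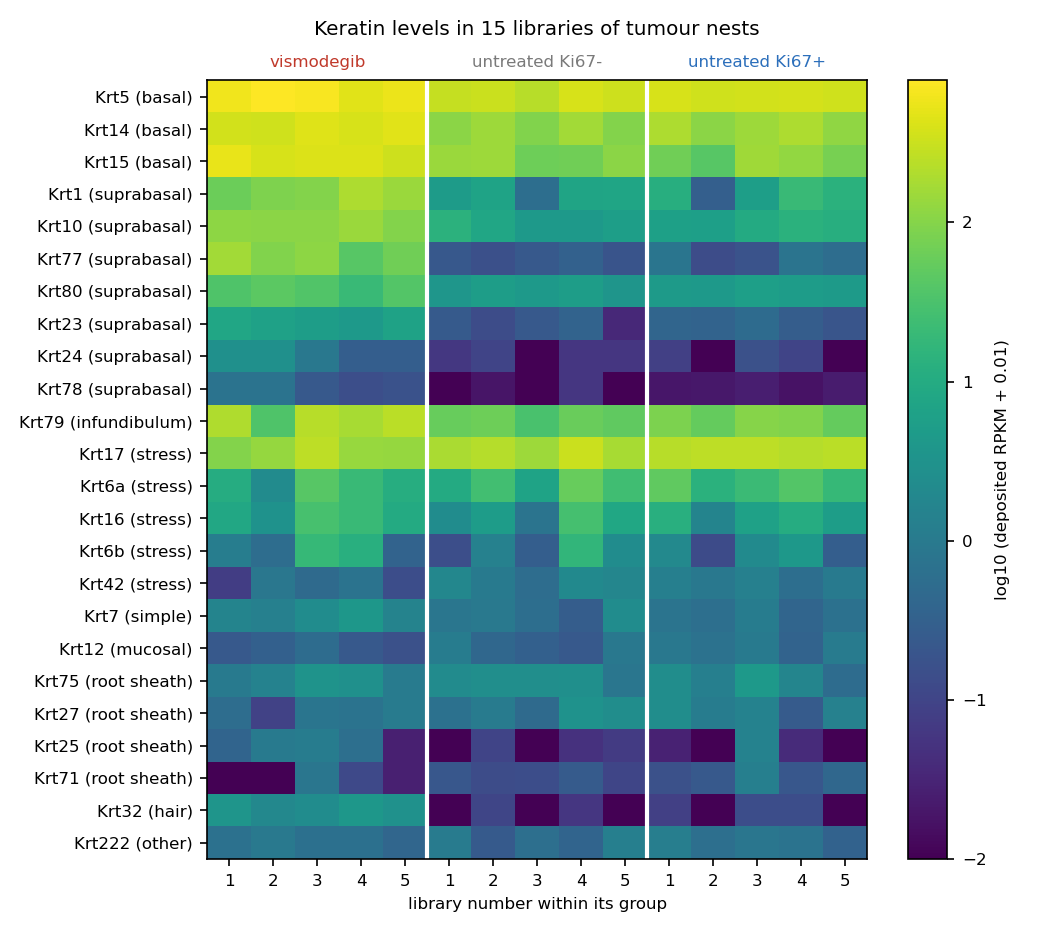
Deposited RPKM of the 24 keratins tested (rows, by class) in 15 libraries (columns, vismodegib at the left), as log10 of RPKM plus 0.01. The suprabasal rows and Krt32 are brighter in all 5 vismodegib libraries than in any of the 10 untreated libraries.

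Of the 53 keratins, 24 had enough counts to be tested, and 29 did not. A call means an adjusted p under 0.05 in edgeR's quasi-likelihood test over all 17282 genes kept. Against Ki67+ nests, 13 of the 24 tested keratins were higher after vismodegib and 2 were lower, in a background in which 12.6% of all genes tested were higher and 13.4% lower. Against Ki67- nests, 13 were higher and 1 was lower, in a background of 15.4% higher and 16.5% lower. The 5 vismodegib libraries all lay above the 5 Ki67+ libraries for 12 keratins and below them for 0, where 10.2% and 10.1% of all genes did so; against Ki67- nests the counts were 11 and 0, where 10.4% and 10.2% of all genes did so. Both comparisons use the same 5 vismodegib libraries and are not independent. Krt24, Krt32 and Krt78 averaged under 1 CPM in both untreated groups and passed the filter on low counts through the vismodegib libraries. Krt25 averaged 0.292 CPM in Ki67- nests and passed it through vismodegib libraries and Ki67+ library 3. A count over the tested members therefore leans to the higher side.

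**Figure D3:**
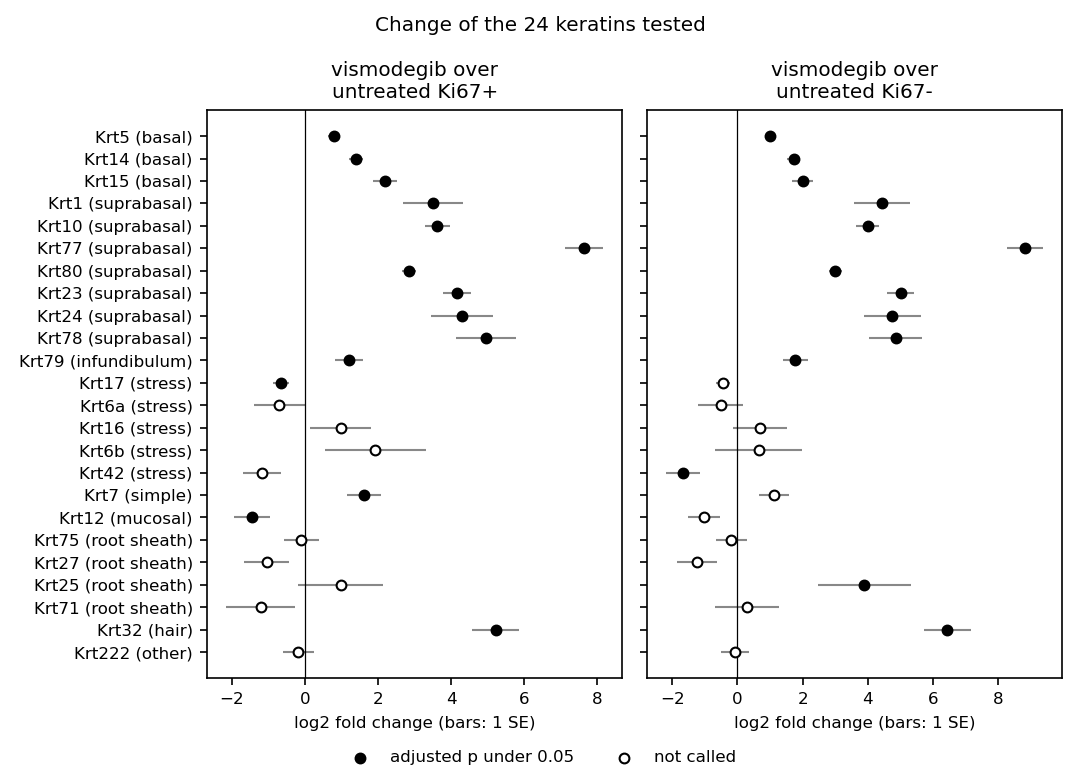
Log2 fold change of the 24 keratins tested (points, with bars of 1 SE; filled where edgeR's adjusted p is under 0.05) after vismodegib over untreated Ki67+ nests at the left and over untreated Ki67- nests at the right. All 7 suprabasal keratins tested and all 3 basal keratins lie to the right of 0 in both panels, up to 8.82 for Krt77.

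All 7 suprabasal keratins that could be tested were higher after vismodegib than in either untreated group, with log2 fold changes from 2.85 to 8.82. In none of the 7 did a vismodegib library overlap an untreated one. Krt24 and Krt78 passed the filter on low counts through the vismodegib libraries, so a higher level was close to fixed for these 2. Without them, Krt77, Krt1, Krt10, Krt80 and Krt23 span the same range of changes. Krt77, a type II keratin of differentiating mouse epidermis also known as Krt1b, had 1252, 718, 892, 314 and 533 CPM in vismodegib libraries 1 to 5, against 1.61, 1.13, 1.62, 2.42 and 1.35 CPM in Ki67- and 6.14, 0.965, 1.31, 5.83 and 4.25 CPM in Ki67+ libraries. The lowest vismodegib library, number 4, was still far above the highest untreated one. For Krt77 the log2 fold change was 7.64 ± 0.521 (SE; edgeR adjusted p = 1.29e-07) against Ki67+ and 8.82 ± 0.563 (adjusted p = 4.97e-08) against Ki67- nests.

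Krt1, the main type II keratin of the spinous layer, had 554, 802, 881, 1691 and 1264 CPM after vismodegib, against 42.8, 62.0, 4.85, 62.7 and 64.9 CPM in Ki67- and 102, 2.57, 50.1, 182 and 118 CPM in Ki67+ libraries. Every vismodegib library stood above every untreated one, and Ki67+ library 2 and Ki67- library 3 were the lowest. Krt1 had a log2 fold change of 3.51 ± 0.827 (edgeR adjusted p = 0.00673) against Ki67+ and 4.45 ± 0.866 (adjusted p = 0.00173) against Ki67- nests. Krt10, its type I partner, had 1024, 972, 960, 1232 and 867 CPM after vismodegib, against 122, 70.4, 37.0, 38.7 and 48.2 CPM in Ki67- and 51.9, 49.7, 87.0, 120 and 101 CPM in Ki67+ libraries. Of the 3 it was the most even among vismodegib libraries, and its log2 fold change was 3.62 ± 0.339 against Ki67+ (edgeR adjusted p = 1.46e-06) and 4.0 ± 0.345 against Ki67- nests (adjusted p = 5.76e-07).

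Krt77 and Krt1, both type II, had opposite extremes within the vismodegib group. Krt77 was highest and Krt1 lowest in library 1, and Krt1 was highest and Krt77 lowest in library 4. In RPKM, the ratio of Krt77 to Krt1 was 2.63, 1.04, 1.18, 0.216 and 0.490 in vismodegib libraries 1 to 5. Krt1 plus Krt77 over Krt10 was more even, at 1.95, 1.67, 1.98, 1.66 and 2.16. In untreated libraries that ratio ran from 0.181 to 1.68 in Ki67- and from 0.0738 to 2.09 in Ki67+ nests. With 5 libraries this is a description, and the levels of both genes in each library are plotted beside Krt10.

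**Figure D4:**
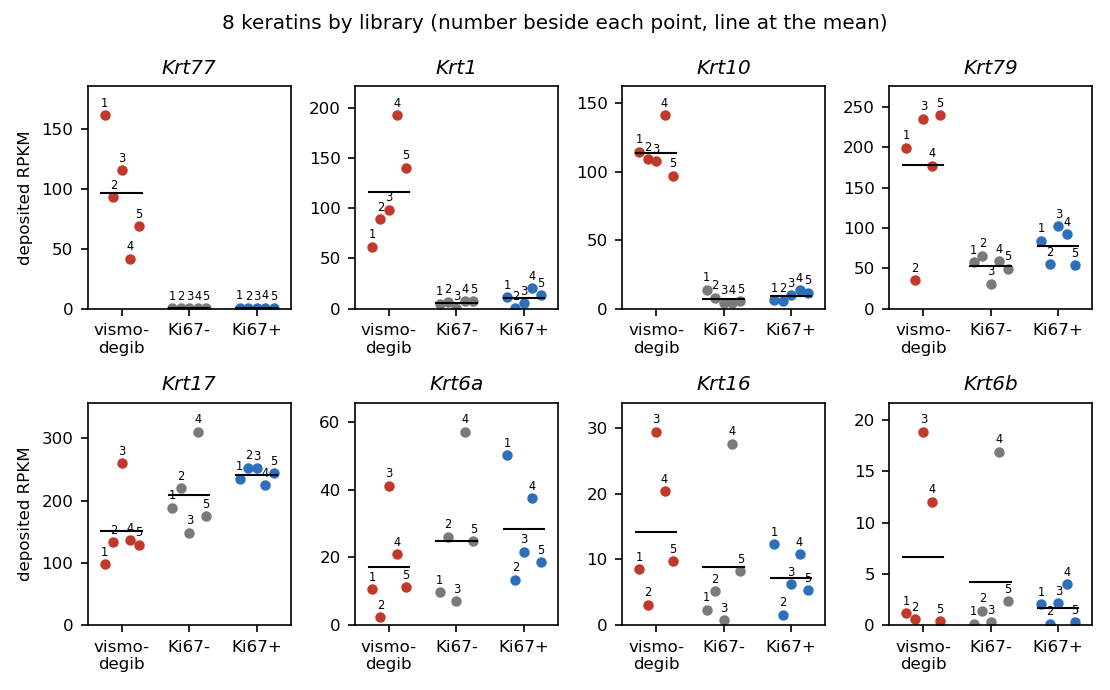
Deposited RPKM of 8 keratins (panels) in each library (points, numbered within their group; line at the group mean; vismodegib at the left of each panel). Krt77, Krt1 and Krt10 separate vismodegib from untreated libraries, Krt79 is low in vismodegib library 2, and Krt16 and Krt6b are high in vismodegib libraries 3 and 4 and in Ki67- library 4.

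Krt80, a type II keratin of differentiating epithelia, had 434, 570, 466, 251 and 493 CPM after vismodegib, against 44.1 to 65.8 CPM in Ki67- and 52.9 to 73.3 CPM in Ki67+ libraries. Its log2 fold change was 2.85 ± 0.194 against Ki67+ (edgeR adjusted p = 3.88e-08) and 3.01 ± 0.196 against Ki67- nests (adjusted p = 3.45e-08), the smallest SE of the suprabasal class. Krt23, a type I keratin, had 44.9, 36.2, 30.3, 24.3 and 37.2 CPM after vismodegib, against 0.150 to 1.96 CPM in Ki67- and 1.01 to 2.85 CPM in Ki67+ libraries. All 5 vismodegib libraries of both genes stood above every untreated library. The log2 fold change of Krt23 was 4.16 ± 0.381 against Ki67+ (adjusted p = 4.74e-07) and 5.01 ± 0.409 against Ki67- nests (adjusted p = 1.34e-07).

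Krt24 and Krt78, a type I and a type II keratin, were low and uneven. Krt24 had 18.0, 17.6, 5.54, 1.70 and 1.70 CPM after vismodegib, against 0 to 0.567 CPM in Ki67- and 0 to 0.950 CPM in Ki67+ libraries. Krt78 had 10.9, 10.9, 3.37, 2.07 and 2.49 CPM after vismodegib, against 0 to 0.755 CPM in Ki67- and 0.114 to 0.238 CPM in Ki67+ libraries. Both were highest in vismodegib libraries 1 and 2. The log2 fold change of Krt24 was 4.31 ± 0.845 against Ki67+ (edgeR adjusted p = 0.000936) and 4.76 ± 0.887 against Ki67- nests (adjusted p = 0.000549), and that of Krt78 was 4.96 ± 0.821 against Ki67+ (adjusted p = 0.000205) and 4.85 ± 0.820 against Ki67- nests (adjusted p = 0.000220). With a term for Xist above Ddx3y, they were 3.18 against Ki67+ and 3.79 against Ki67- nests for Krt24, and 4.33 against Ki67+ and 4.20 against Ki67- nests for Krt78, all still called; without Ki67- library 4, Krt78 was at 6.70 against Ki67- nests.

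The other suprabasal keratins were not tested. Krt2, a type II keratin of the upper epidermis, had 29 counts over the 5 vismodegib libraries, against 0 in Ki67- and 2 in Ki67+ libraries, and 24 of the 29 came from vismodegib libraries 3 and 5. Krt9, the type I keratin of palm and sole skin, had 3 counts after vismodegib, against 0 in Ki67- and 2 in Ki67+ libraries. Along the type II cluster, Krt1 and Krt77 are neighbours and both were high after vismodegib, while Krt2 beside Krt1 and Krt76 beside Krt77 were near 0.

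**Figure D5:**
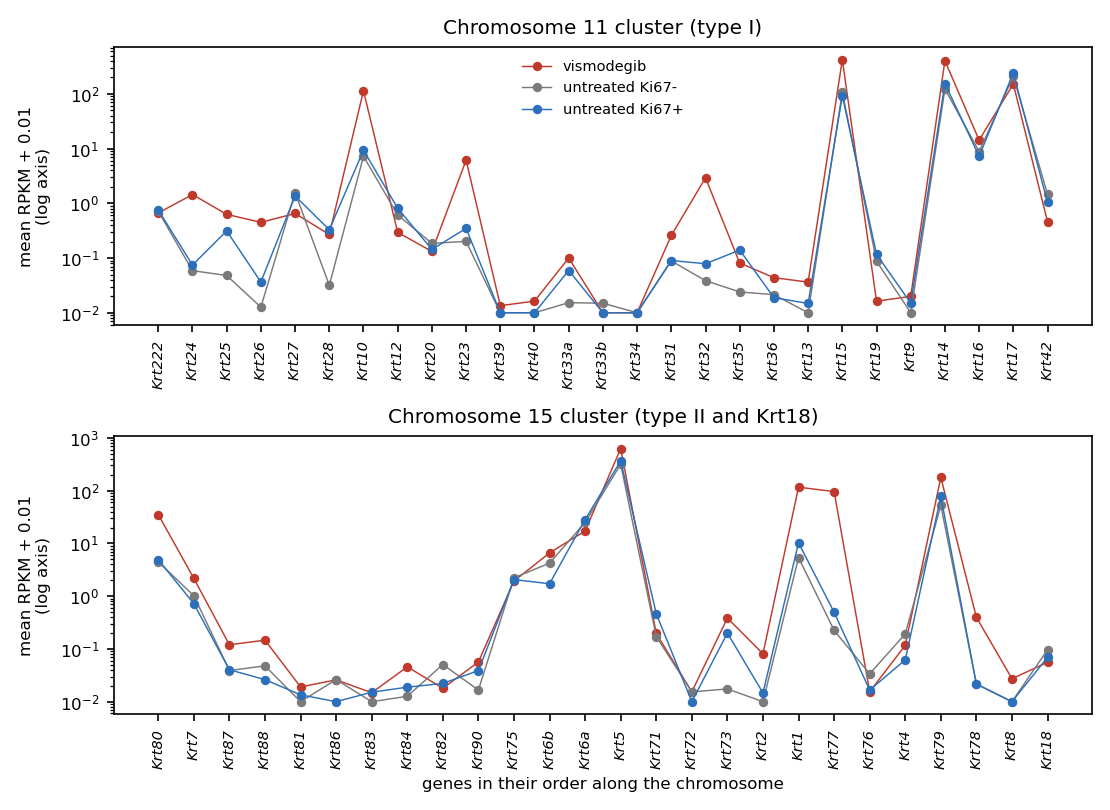
Mean deposited RPKM plus 0.01 (log axis) of 53 keratins in their order along chromosome 11 (top) and chromosome 15 (bottom), for vismodegib, untreated Ki67- and untreated Ki67+ nests. Krt1 and Krt77 reach means of 117 and 96.1 RPKM after vismodegib beside Krt2 and Krt76, whose means stay under 0.1 in every group.

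Most genes tested on 3 non-keratin lists, of cornifying epidermis, dendritic cells and T cells, were also higher after vismodegib. Of all genes tested, 12.6% were higher against Ki67+ and 15.4% against Ki67- nests. Of 19 non-keratin genes of cornifying epidermis, such as Lor (loricrin) and the late cornified envelope genes, 17 were higher after vismodegib than in Ki67+ and 18 than in Ki67- nests, and 0 were lower. Their summed level was 2594 to 5169 CPM after vismodegib, against 475 to 1263 CPM in Ki67- and 520 to 1052 CPM in Ki67+ libraries. Lce1a1, Lce1c, Lor and Lce1b had the smallest adjusted p, with log2 fold changes of 7.88, 8.39, 6.61 and 6.50 against Ki67+ nests, where they averaged 0.117, 0.0536, 1.26 and 0.517 CPM. Lce1a1, Lce1b and Lce1c averaged under 1 CPM in both untreated groups and passed the filter on low counts through the vismodegib libraries. Of the other 16 genes of that list, 14 were higher against Ki67+ and 15 against Ki67- nests. Tgm3, among these 16 and called in both comparisons, averaged 1.10 CPM in Ki67+ and 0.540 CPM in Ki67- nests. It too could pass the filter only with vismodegib libraries, so these counts still lean to the higher side. Langerhans and other dendritic cell genes (Csf1r, H2-Aa, H2-Ab1 and Cd207 first) were higher for 9 of 9 tested against Ki67+ and 7 of 9 against Ki67- nests, with sums of 783 to 2433 CPM after vismodegib, against 145 to 478 CPM in Ki67- and 109 to 502 CPM in Ki67+ libraries. T cell genes were higher for 5 of 7 in both comparisons, with sums of 84.2 to 195 CPM after vismodegib, against 22.9 to 108 CPM in Ki67- and 23.5 to 73.6 CPM in Ki67+ libraries. Flt3, a dendritic cell gene called only against Ki67+ nests, averaged 0.5924 CPM there and 1.327 CPM in Ki67- nests. Cd2, a T cell gene called only against Ki67- nests, averaged 0.7506 CPM there and 1.004 CPM in Ki67+ nests. Both could pass the filter on low counts only with vismodegib libraries, so the dendritic and T cell counts lean to the higher side. The part of captured interfollicular epidermis in the keratin changes was not tested.

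The 3 basal keratins also rose, by less. Krt5, the type II basal keratin, had 4954, 6279, 5654, 3725 and 4526 CPM after vismodegib, against 2330, 2519, 1786, 3210 and 2610 CPM in Ki67- and 3131, 2724, 2923, 2958 and 2770 CPM in Ki67+ libraries. Krt14, its type I partner, had 2333, 2272, 2915, 2516 and 3002 CPM after vismodegib, against 712, 976, 573, 1046 and 616 CPM in Ki67- and 1253, 694, 978, 1242 and 771 CPM in Ki67+ libraries. Neither gene had a vismodegib library within the range of an untreated group. The log2 fold change of Krt5 was 0.79 ± 0.153 against Ki67+ (edgeR adjusted p = 0.000825) and 1.01 ± 0.154 against Ki67- nests (adjusted p = 8.11e-05), and that of Krt14 was 1.40 ± 0.195 against Ki67+ (adjusted p = 4.09e-05) and 1.73 ± 0.197 against Ki67- nests (adjusted p = 4.51e-06).

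Krt15, a type I keratin of basal cells and of hair follicle stem cells in the bulge, changed most of the 3. It had 3329, 2444, 2771, 2649 and 2079 CPM after vismodegib, against 901, 933, 388, 426 and 673 CPM in Ki67- and 418, 255, 998, 770 and 469 CPM in Ki67+ libraries. The lowest vismodegib library stood above the highest untreated one. Krt15 had a log2 fold change of 2.19 ± 0.336 against Ki67+ (edgeR adjusted p = 0.000162) and 2.0 ± 0.333 against Ki67- nests (adjusted p = 0.000299). In RPKM, Krt15 to Krt14 was 1.07 ± 0.272 after vismodegib, against 0.905 ± 0.350 in Ki67- and 0.607 ± 0.283 in Ki67+ nests, and the groups overlapped.

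Krt79, a type II keratin of the follicle infundibulum and sebaceous duct in the mouse, was high in 4 of the 5 vismodegib libraries. It had 1557, 275, 1829, 1349 and 1873 CPM after vismodegib, against 447, 505, 231, 455 and 371 CPM in Ki67- and 649, 416, 791, 712 and 411 CPM in Ki67+ libraries. Vismodegib library 2 lay below all Ki67+ libraries and within the Ki67- range. For Krt79 the log2 fold change was 1.21 ± 0.387 (edgeR adjusted p = 0.0317) against Ki67+ and 1.78 ± 0.394 (adjusted p = 0.00315) against Ki67- nests. The first call was lost without vismodegib library 1, 3 or 5 or Ki67+ library 2 or 5 (adjusted p from 0.0572 to 0.0779), with only the 2 groups in the fit (0.0609) and without the filter on low counts (0.0778). Without vismodegib library 2 it was 1.47 (adjusted p = 0.000137).

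Library 2 was also the lowest vismodegib library for sebaceous genes. The 12 sebaceous genes, such as Scd1 and Mgst1, summed to 5466, 300, 1610, 716 and 2667 CPM after vismodegib, against 293 to 1961 CPM in Ki67- and 381 to 1403 CPM in Ki67+ libraries. Of the 12, 2 were higher after vismodegib against Ki67+ (Scd3 and Mgst1) and 3 against Ki67- nests, and 0 were lower, where 12.6% and 15.4% of all genes tested were higher in those comparisons. Their median log2 fold change was 1.69 against Ki67+ and 1.91 against Ki67- nests. Their part in the Krt79 result was not tested.

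Of the 5 stress keratins 0 were called higher after vismodegib in either comparison. Of all genes tested, 12.6% were higher against Ki67+ and 15.4% against Ki67- nests, so for 5 genes a count of 0 is near those shares. Krt17, the type I keratin of the outer root sheath and of basal cell carcinoma, had 546, 741, 1438, 739 and 717 CPM after vismodegib, against 1037, 1211, 787, 1711 and 939 CPM in Ki67- and 1288, 1370, 1391, 1236 and 1319 CPM in Ki67+ libraries. Vismodegib library 3 stood above all Ki67+ libraries and within the Ki67- range, and the other 4 were below every untreated library. Krt17 had a log2 fold change of -0.66 ± 0.225 (edgeR adjusted p = 0.0381) against Ki67+ and -0.44 ± 0.225 (adjusted p = 0.142) against Ki67- nests. The first call was lost without any 1 of vismodegib libraries 1, 2, 4 and 5 or of the 5 Ki67+ libraries (adjusted p from 0.0548 to 0.0992), without the filter (0.0679) and with the Xist term (0.0593). Without vismodegib library 3 both were called, at -0.94 against Ki67+ (adjusted p = 0.00124) and -0.73 against Ki67- nests (adjusted p = 0.00709). In RPKM, Krt17 held 6.76% ± 2.08 of the keratin pool after vismodegib, against 23.8% ± 2.5 in Ki67- and 24.5% ± 3.99 in Ki67+ nests, a share that also depends on the rise of the other keratins.

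Krt6a and Krt6b, type II keratins induced by wounding, and Krt16, their type I partner, spread widely within every group. Krt6a had 88.2, 19.0, 341, 169 and 92.5 CPM after vismodegib, against 79.4, 215, 55.5, 471 and 199 CPM in Ki67- and 412, 109, 179, 308 and 150 CPM in Ki67+ libraries. Krt16 had 51.2, 18.7, 176, 119 and 58.2 CPM after vismodegib, against 13.9, 30.5, 4.24, 164 and 47.6 CPM in Ki67- and 72.9, 9.17, 36.8, 64.0 and 31.0 CPM in Ki67+ libraries. Krt6b had 9.71, 4.43, 155, 96.5 and 2.88 CPM after vismodegib, against 1.13, 11.5, 2.22, 138 and 18.6 CPM in Ki67- and 16.3, 0.965, 17.6, 32.5 and 2.23 CPM in Ki67+ libraries. Vismodegib libraries 3 and 4 and Ki67- library 4 were high for Krt16 and Krt6b alike, and the groups overlapped for all 3 genes.

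None of the 3 passed the test. The log2 fold change against Ki67+ and Ki67- nests was -0.70 ± 0.694 and -0.52 ± 0.693 for Krt6a (edgeR adjusted p = 0.504 and 0.603), 0.98 ± 0.834 and 0.70 ± 0.829 for Krt16 (adjusted p = 0.427 and 0.552), and 1.93 ± 1.39 and 0.65 ± 1.33 for Krt6b (adjusted p = 0.342 and 0.744). With 1 library left out, Krt16 ran from 0.53 to 1.26 against Ki67+ and from 0.25 (without vismodegib library 3) to 1.81 (without Ki67- library 4) against Ki67- nests, and Krt6b from 1.02 to 2.51 against Ki67+ and from -0.26 to 2.66 against Ki67- nests, with no call. The SEs were large beside the changes, so moderate differences were not detectable at this spread. The 2 partners did differ in their ratio: Krt6a to Krt16 in RPKM was 0.733 to 1.40 after vismodegib, against 2.07 to 9.44 in Ki67- and 3.47 to 8.55 in Ki67+ libraries, without overlap.

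Krt42, a type I keratin close to Krt17 and also known as K17n, had 0.462, 5.85, 3.27, 4.86 and 0.917 CPM after vismodegib, against 12.4, 7.08, 3.64, 14.04 and 11.7 CPM in Ki67- and 8.75, 6.11, 9.27, 4.0 and 6.67 CPM in Ki67+ libraries. The groups overlapped. For Krt42 the log2 fold change was -1.17 ± 0.520 (edgeR adjusted p = 0.106) against Ki67+ and -1.67 ± 0.522 (adjusted p = 0.0210) against Ki67- nests. The second call was lost without vismodegib library 5 (adjusted p = 0.0504), and the first comparison passed without vismodegib library 2 (-1.52, adjusted p = 0.0488). Counts are of uniquely aligned reads, so levels of Krt6a with Krt6b and of Krt14, Krt16, Krt17 and Krt42, which are similar in sequence, are uncertain to the extent that shared reads were dropped.

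Simple keratins, those of single-layered epithelia, were scarce. Krt7, a type II keratin, had 11.3, 9.33, 16.7, 26.0 and 10.5 CPM after vismodegib, against 5.65, 6.37, 3.84, 1.81 and 16.2 CPM in Ki67- and 5.22, 4.02, 7.72, 2.63 and 4.45 CPM in Ki67+ libraries. All vismodegib libraries were above the Ki67+ libraries, and Ki67- library 5 lay within the vismodegib range. Krt7 had a log2 fold change of 1.62 ± 0.468 against Ki67+ (edgeR adjusted p = 0.0158) and 1.12 ± 0.460 against Ki67- nests (adjusted p = 0.0702). The first call was lost without vismodegib library 4 (adjusted p = 0.0529), and the second comparison was called without Ki67- library 5 (1.74, adjusted p = 0.00430) and by DESeq2 (1.13, adjusted p = 0.0457).

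The other 4 simple keratins were not tested. Krt20, of gut epithelium and Merkel cells, had 14, 5, 1, 5 and 5 counts in vismodegib libraries, against 22, 1, 6, 7 and 1 in Ki67- and 5, 7, 19, 1 and 2 in Ki67+ libraries. Krt8 had 4 counts after vismodegib and 0 in either untreated group, and its partner Krt18 had 12 counts after vismodegib, against 16 in Ki67- and 14 in Ki67+ libraries. Krt19 had 1 count after vismodegib, against 12 in Ki67- and 22 in Ki67+ libraries, 16 of them in a single library. Merkel cells make Krt8, Krt18 and Krt20, and their regulators Atoh1, Isl1 and Sox2 averaged at most 0.127, 0.191 and 0.0308 CPM in any group. Of the 8 Merkel cell genes 2 were tested and 1, Piezo2, was lower after vismodegib in both comparisons. Of all genes tested, 13.4% were lower against Ki67+ and 16.5% against Ki67- nests, and 2 genes are too few to set beside those shares. The list summed to 4.45 to 10.8 CPM after vismodegib, against 23.2 to 107 CPM in Ki67- and 28.5 to 102 CPM in Ki67+ libraries. Without Piezo2 the other 7 summed to 1.70 to 5.53 CPM after vismodegib, against 0.449 to 6.13 CPM in Ki67- and 2.02 to 8.52 CPM in Ki67+ libraries, and these ranges overlapped; Chga averaged 0.463 CPM after vismodegib, against 0.0567 CPM in Ki67- and 0.129 CPM in Ki67+ nests.

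Krt12, the type I keratin of corneal epithelium, was the 1 mucosal keratin tested. It had 1.54, 2.06, 3.56, 1.46 and 1.05 CPM after vismodegib, against 7.74, 2.83, 2.02, 1.51 and 5.98 CPM in Ki67- and 5.99, 4.66, 6.77, 2.40 and 7.08 CPM in Ki67+ libraries. Vismodegib library 3 lay above Ki67+ library 4, so the groups overlapped. Krt12 had a log2 fold change of -1.45 ± 0.492 against Ki67+ (edgeR adjusted p = 0.0363) and -1.04 ± 0.492 against Ki67- nests (adjusted p = 0.116). The first call was lost without any 1 of vismodegib libraries 1, 2, 4 and 5 or Ki67+ libraries 1, 2, 3 and 5 (adjusted p from 0.0528 to 0.0865), and the second comparison was called with the Xist term (-1.37, adjusted p = 0.0468). Krt4, Krt13 and Krt76 were not tested, and the highest of these, Krt4, had 34 counts after vismodegib, against 46 in Ki67- and 15 in Ki67+ libraries.

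Of the 8 root sheath keratins, which line the growing hair, 4 were tested and 1 was called. Krt25, a type I keratin of the inner root sheath, had 2.93, 7.59, 8.81, 4.62 and 0.131 CPM after vismodegib, against 0, 0.708, 0, 0.302 and 0.449 CPM in Ki67- and 0.154, 0, 11.4, 0.229 and 0 CPM in Ki67+ libraries. Ki67+ library 3 alone held 96 of the 99 counts in its group. Krt25 had a log2 fold change of 0.98 ± 1.16 (edgeR adjusted p = 0.580) against Ki67+ and 3.90 ± 1.42 (adjusted p = 0.0468) against Ki67- nests. Without Ki67+ library 3 the first was 5.25 (adjusted p = 0.00273); the second call was lost without any 1 of vismodegib libraries 1 to 4 or of the 5 Ki67- libraries (adjusted p from 0.0577 to 0.0939), without the filter (0.0998) and with the Xist term (0.0963), and without Ki67- library 2 the change was 4.48.

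Other inner root sheath keratins followed single libraries as well. Krt28 (type I) had 73 of its 88 Ki67+ counts in Ki67+ library 3, and 70 counts after vismodegib, 45 of them in library 4. Krt73 (type II) had 91 of 119 vismodegib counts in library 4, and 58 of 62 Ki67+ counts in library 3. Krt26 (type I) had 164 counts after vismodegib, 94 of them in library 2, against 1 in Ki67- and 10 in Ki67+ libraries. Without the filter Krt26 was called in both comparisons, and Krt2 against Ki67- nests. Krt71, Krt27 and Krt75, the last a keratin of the companion layer, averaged 1.48, 3.61 and 22.9 CPM after vismodegib, against 1.27, 8.65 and 26.1 CPM in Ki67- and 3.59, 7.52 and 24.4 CPM in Ki67+ nests, and none was called.

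Among the 15 hair keratins 14 were not tested and Krt34 had no count. Krt32, the type I keratin of the hair cuticle, had 21.6, 11.7, 14.7, 23.0 and 18.1 CPM after vismodegib, against 0, 0.567, 0, 0.302 and 0 CPM in Ki67- and 0.461, 0, 0.832, 0.80 and 0 CPM in Ki67+ libraries. All 5 vismodegib libraries stood far above every untreated library. Krt32 had a log2 fold change of 5.22 ± 0.650 against Ki67+ (edgeR adjusted p = 1.44e-05) and 6.44 ± 0.731 against Ki67- nests (adjusted p = 4.51e-06), and without Ki67- library 2 the second was 7.49. The next hair keratins by count were Krt31, with 57 counts after vismodegib, against 14 in Ki67- and 17 in Ki67+ libraries, and Krt35, with 20 after vismodegib, against 3 in Ki67- and 36 in Ki67+ libraries.

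Keratin-associated proteins, which cross-link hair keratins, were nearly as scarce. Of 54 listed, 1 was tested: Krtap14 was higher after vismodegib, with a log2 fold change of 1.89 ± 0.200 against Ki67+ (edgeR adjusted p = 2.39e-06) and 1.71 ± 0.199 against Ki67- nests (adjusted p = 5.94e-06). Of 8 other hair genes tested, 2 were higher and 4 lower against Ki67+ nests, where 12.6% and 13.4% of all genes tested were. Against Ki67- nests 2 were higher and 2 lower, where 15.4% and 16.5% of all genes tested were. The counts of 2 were not far from those shares. Hoxc13, Foxn1, Msx2, Dlx3 and Gata3 are among these 8 and are counted again below with the regulators of keratin genes. Hoxc13, which directs hair keratin genes in the mouse, averaged 3.74 CPM after vismodegib, against 61.0 CPM in Ki67- and 69.7 in Ki67+ nests, a log2 fold change of -4.20 against Ki67+ (edgeR adjusted p = 4.39e-05) and -4.01 against Ki67- nests (adjusted p = 5.43e-05). Foxn1, the regulator lost in nude mice, averaged 26.7 CPM after vismodegib, against 2.82 CPM in Ki67- and 3.01 CPM in Ki67+ nests, a log2 fold change of 3.11 against Ki67+ (edgeR adjusted p = 0.000194) and 3.24 against Ki67- nests (adjusted p = 0.000135).

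Many of the genes tested on a list of desmosome genes and of genes that anchor or bundle keratin filaments rose. Of 17 such genes tested, 10 were higher after vismodegib against Ki67+ and 9 against Ki67- nests and 0 were lower. Flg is also counted with the cornifying epidermis genes and Tchh with the other hair genes, so these counts are not independent. Of all genes tested, 12.6% were higher against Ki67+ and 15.4% against Ki67- nests. The median log2 fold change of the 17 genes was 0.66 against Ki67+ and 0.69 against Ki67- nests. That of all genes tested was -0.02 against Ki67+ and -0.03 against Ki67- nests. Ppl (periplakin) changed by 1.61 (edgeR adjusted p = 6.95e-07), Dsp (desmoplakin, which ties keratins to desmosomes) by 1.33 (adjusted p = 3.87e-06), Pof1b by 1.24 (adjusted p = 9.08e-05) and Cdsn (corneodesmosin) by 5.13 (adjusted p = 0.000716) against Ki67+ nests. Of 8 other intermediate filament genes tested, 0 were higher and 1, Synm (synemin), was lower, at -0.98 (adjusted p = 0.00901) against Ki67+ and -1.48 (adjusted p = 0.000350) against Ki67- nests. That is near the 13.4% and 16.5% of all genes tested that were lower in those comparisons. Vim (vimentin) averaged 266 CPM after vismodegib, against 290 CPM in Ki67- and 336 in Ki67+ nests, and was not called. The DESeq2 count of other filament genes higher against Ki67- nests was 1, and leaving out vismodegib library 4 or 5, Ki67+ library 2 or 5 or Ki67- library 1 or 4 gave 1 to 3.

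Regulators known to act on keratin genes were called in both directions. Of 24 tested, 11 were higher and 5 lower against Ki67+ nests, where 12.6% and 13.4% of all genes tested were. Against Ki67- nests 10 were higher and 6 lower, where 15.4% and 16.5% of all genes tested were. The lower counts were not far from those shares. Lhx2 and Lef1, factors of the hair germ, fell by 3.12 (edgeR adjusted p = 1.39e-06) and 1.93 (adjusted p = 9.92e-06) on the log2 scale against Ki67+ nests. Zfp750, a factor of terminal epidermal differentiation, rose by 1.73 (adjusted p = 3.03e-05). Trp63, the p63 gene of basal keratinocytes, averaged 1424 CPM after vismodegib, against 1380 CPM in Ki67- and 1296 in Ki67+ nests, and was not called. Fibroblast genes were lower after vismodegib for 5 of 10 in both comparisons. Melanocyte genes were lower for 5 of 8 against Ki67+ and 3 of 8 against Ki67- nests, with 1, Mitf, higher against Ki67- nests. Of all genes tested, 13.4% were lower against Ki67+ and 16.5% against Ki67- nests. Fibroblast sums were 458 to 3784 CPM after vismodegib, against 2823 to 5264 CPM in Ki67- and 1879 to 6436 CPM in Ki67+ libraries. Melanocyte sums were 127 to 463 CPM after vismodegib, against 227 to 1299 CPM in Ki67- and 384 to 1652 CPM in Ki67+ libraries. Their part in the keratin changes was not tested.

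Between the untreated groups, 0 of 24 keratins were called in Ki67- against Ki67+ nests by edgeR or by DESeq2. Of all genes tested, edgeR called 0.174%, and DESeq2 called 5 higher and 81 lower of 17234. For 0 keratins did the groups fail to overlap, where 1.17% of all genes did so. At an unadjusted p under 0.05 there was 1, Krt77, where 6.68% of all genes stood: it had 1.13 to 2.42 CPM in Ki67-, against 0.965 to 6.14 CPM in Ki67+ libraries, a log2 fold change of -1.18 ± 0.548 (adjusted p = 0.745 in edgeR). The cell cycle genes, by contrast, were lower in Ki67- nests for 3 of 10 and higher for 0. Against Ki67+ nests, 0 of these 10 were higher after vismodegib and 1 was lower, near the 13.4% of all genes tested that were lower. Against Ki67- nests 6 were higher and 0 lower, where 15.4% of all genes tested were higher. Smaller keratin differences were not detectable at this spread.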

How the data were processed

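Read counts per gene were deposited as whole numbers; per the file headers they are reads aligned uniquely to a gene, and each file also holds RPKM divided by a size factor per library. Reads were aligned with GSNAP to GRCm38, per the submitters' processing notes; not given in the sources used here were the aligner's version, the annotation, the use of strand and the size-factor method. Without strand, overlapping and antisense genes cannot be told apart. Symbols came from RefSeq (GRCm38.p6): 31049 of 36528 gene identifiers (85.0%) matched.

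Counts were used as deposited. Genes were kept by filterByExpr (minimum count 10, minimum total 15), scaled by TMM (factors 0.937 to 1.05) and tested with edgeR 4.0.16 (quasi-likelihood, robust, two-sided; R 4.3.3) in 1 fit of 15 libraries without covariates (12 residual degrees of freedom). P-values were adjusted by Benjamini-Hochberg over all 17282 genes. The SE is the log2 fold change over the square root of F, and the biological coefficient of variation was 0.348. CPM use the TMM-adjusted library size and are not per length; deposited RPKM served only to compare genes with each other. Depth per library limits what low genes can show. The scripts were tested on simulated data.

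Named with values by library are keratins called in at least 1 comparison with a mean of at least 1 CPM in a group, and basal, stress and simple keratins at that level; from other lists, up to 4 called genes of smallest adjusted p against Ki67+ nests, with Vim, Trp63, Piezo2 and Mitf added after their values were seen. The members, classes and lists were chosen with earlier results of these data known. Alternatives were other scalings, DESeq2 1.42.0, other filters, 2 groups in the fit, a term for Xist above Ddx3y and leaving out each library.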

Additional observations from a re-analysis of the deposited data

Results flagged for a closer look

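In 6 of 81 sets of 5 libraries (keratin levels and class shares by group) the highest library stood apart from the other 4 by Dixon's criterion for 5 values (0.71); chance flags about 1 in 20 groups. Krt17 was highest in vismodegib library 3, at 1438 CPM, which also carried the highest stress share of that group, 0.207% of counts. Krt16 and Krt6b were highest in Ki67- library 4, at 164 and 138 CPM, and Krt78 was highest in the same library, at 0.755 CPM. Krt25 was highest in Ki67+ library 3, at 11.4 CPM. The causes were not tested.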

How the results depend on the processing

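The counts of keratins higher after vismodegib stayed at 12 to 14 in both comparisons under every alternative run, and no keratin was called between the untreated groups under any. The few lower calls depended on the processing: against Ki67+ nests the count of 2 became 1 without the filter on low counts and 1 with the Xist term, and ran from 0 to 3 when 1 library was left out; against Ki67- nests the count of 1 became 2 with the Xist term and ran from 0 to 2. Of 40 pairs of a named keratin and a comparison, 27 stayed on the same side of the threshold with the same sign throughout. The sign turned against Ki67- nests for Krt6b without vismodegib library 3 and for Krt6a without Ki67- library 4: with 1 library left out, Krt6b ran from -0.26 to 2.66 and Krt6a from -1.14 to 0.049, neither of them called. Other intermediate filaments higher against Ki67- nests numbered 1 with DESeq2 and 0 to 3 when 1 library was left out, and keratin-associated proteins higher numbered 6 in both comparisons without the filter; these list counts were added after seeing the data. With counts in place of RPKM, type II to type I was 1.22 after vismodegib, 1.20 in Ki67- and 1.30 in Ki67+ nests, and Krt5 to Krt14 was 1.96 after vismodegib, 3.25 in Ki67- and 3.08 in Ki67+ nests, since counts are not per length. The causes were not tested. No paired analysis was possible because the labels give no replicate numbers. Leaving out a library lowers the number of libraries the filter requires, so slightly more genes were tested. The 29 keratins with few counts cannot be compared at this depth, and shared animals or a batch of the Ki67- libraries would make the p-values too small.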
